A study of Mus musculus with 27 samples.

Results

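The genes examined here were those named as subunits of the proteasome, taken as every gene whose symbol begins with Psma, Psmb, Psmc or Psmd followed by digits only, apart from Psmb8 and Psmb9. They are mostly subunits present in all cells, but include the inducible Psmb10, the testis and thymus forms Psma8 and Psmb11, and the assembly chaperones Psmd5, Psmd9 and Psmd10. This gave 36 of the 18820 genes measured on the arrays, and all 36 were among the 13993 genes that passed the filter on low and invariant values. Psma4 has the right kind of symbol but shares its transcript cluster (the set of probes that stands for 1 gene) with a second symbol, so it was not included. Expression was measured in the livers of male C57BL/6J mice aged 28 months, with 1 Affymetrix Mouse Gene 1.1 ST array per mouse and individually housed animals. The C group (8 mice) ate the AIN-93W control diet ad libitum. The CR group (5 mice) was given daily portions of the AIN-93W-CR diet with 30% less energy than the control mice ate, and the MF group (7 mice) ate a medium-fat diet, AIN-93W-MF, with 25% of its energy from fat ad libitum. All these diets began at 9 weeks of age. The CR-MF group (7 mice) was calorie restricted until 24 months of age and then switched to the MF diet, ad libitum after a gradual increase, for its last 4 months. Every mouse was fasted, gavaged with carboxymethyl cellulose and fasted again before the liver was taken, and the CR mice alone were given part of their daily portion shortly before the first fast. What that meal adds to a difference between CR and another group was not tested.

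The proteasome is the protease that removes proteins tagged with ubiquitin. Its core particle, called 20S, is a barrel of outer rings of alpha subunits, which gate the entrance, around inner rings of beta subunits, of which Psmb5, Psmb6 and Psmb7 carry the cutting sites. The cap, called 19S, has a base with a ring of ATPases (the Psmc subunits), which unfolds the substrate. The lid of the cap cuts off the ubiquitin. The subunits are needed in fixed ratios, their genes are known to be transcribed together under the factor Nfe2l1, and interferon replaces the cutting subunits by Psmb8, Psmb9 and Psmb10 to form the immunoproteasome. Liver is known for a high turnover of protein during fasting, to which the proteasome and autophagy both contribute.

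Regulation of these genes is known to run through antioxidant response elements, whose core is TGACNNNGC (N is any base), and CCAAT boxes, which bind the factor NF-Y. Stretches before a transcript start are shown here for the 4 genes that passed a test in the comparisons below. These are the genes on which the diet results turn. They come from RefSeq (assembly GRCm38.p6), run 5′ to 3′ and end at the base before the annotated start of a transcript. Capitals mark matches to either motif on either strand (ATTGG is CCAAT read on the other strand), and the motifs do not overlap in these genes.
Psma7: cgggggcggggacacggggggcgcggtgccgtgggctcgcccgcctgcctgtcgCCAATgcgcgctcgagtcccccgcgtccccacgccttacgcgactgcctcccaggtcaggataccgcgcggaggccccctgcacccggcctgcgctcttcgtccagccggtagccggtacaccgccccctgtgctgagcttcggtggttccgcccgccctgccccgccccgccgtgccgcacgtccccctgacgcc
Psmb6: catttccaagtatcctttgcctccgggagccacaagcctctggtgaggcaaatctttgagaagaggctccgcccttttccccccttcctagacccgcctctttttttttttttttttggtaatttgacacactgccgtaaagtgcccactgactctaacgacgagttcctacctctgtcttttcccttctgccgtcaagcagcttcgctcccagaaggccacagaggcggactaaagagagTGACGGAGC
Psmd9: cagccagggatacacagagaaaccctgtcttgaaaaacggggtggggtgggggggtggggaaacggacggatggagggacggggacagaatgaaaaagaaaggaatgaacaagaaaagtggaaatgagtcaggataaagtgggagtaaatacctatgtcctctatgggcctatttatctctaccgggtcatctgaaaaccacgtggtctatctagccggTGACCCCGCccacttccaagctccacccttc
Psmd10: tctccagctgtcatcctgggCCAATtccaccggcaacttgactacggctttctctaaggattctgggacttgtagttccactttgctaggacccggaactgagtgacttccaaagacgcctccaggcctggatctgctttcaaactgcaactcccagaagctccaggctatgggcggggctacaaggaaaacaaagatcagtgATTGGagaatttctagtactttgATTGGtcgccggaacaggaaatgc
The Psma7 stretch is chr2:180042465-180042714 on the minus strand and the Psmb6 stretch is chr11:70525107-70525356 on the plus strand. The Psmd9 stretch is chr5:123227940-123228189 on the plus strand and the Psmd10 stretch is chrX:140956712-140956961 on the minus strand. The antioxidant response core was found in the stretches of Psmb6 and Psmd9. The CCAAT box was found in that of Psma7 and, at 3 places, in that of Psmd10. The annotated Psmb6 gene starts at 70525324, inside its stretch, so the match at the end of that stretch lies within the gene. Promoters from 250 bases before to 50 bases after the start were listed for 29 of the 36 genes (31 promoters). The antioxidant response core was in 5 of these promoters (Psmb5, Psmb6, Psmc6, Psmd9 and Psmd12), or 16.1%, against 12.4% of all 32851 promoters of this length and 14.0% of the 13961 promoters of genes past the filter. The CCAAT box was in 12 of them, or 38.7%, against 37.4% of all promoters and 36.9% of those of genes past the filter.

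The deposited values are log2 expression values, and values of different genes were not set against each other, since each gene has its own probes. Albumin stood between 13.547 and 13.725 in every mouse, as a check that the tissue is liver. Means over the 27 mice were as follows for the proteasome genes. In the alpha ring, Psma1 stood at 10.139, Psma2 at 7.920, Psma3 at 10.181, Psma5 at 8.399, Psma6 at 10.043 and Psma7 at 8.365. Among beta subunits without a cutting site, Psmb1 stood at 9.088, Psmb2 at 10.769, Psmb3 at 12.018 and Psmb4 at 10.702, while the cutting subunits Psmb5, Psmb6 and Psmb7 stood at 10.977, 9.508 and 9.334. In the cap, the ATPases Psmc1 to Psmc6 stood at 8.791, 7.847, 8.337, 9.284, 7.250 and 9.096. The scaffold subunits Psmd1 and Psmd2 stood at 10.184 and 10.074, and the ubiquitin receptor Psmd4 at 8.531. The lid subunits Psmd3, Psmd6, Psmd7 and Psmd8 stood at 9.064, 8.897, 9.126 and 10.335, and Psmd11, Psmd12, Psmd13 and Psmd14 at 9.581, 9.243, 8.802 and 9.718. The chaperones Psmd5, Psmd9 and Psmd10, which help to build the base and are absent from the finished particle, stood at 8.350, 7.890 and 7.872. The inducible cutting subunit Psmb10 stood at 9.232. The alpha subunit of the testis, Psma8, and the cutting subunit of the thymus cortex, Psmb11, stood near the detection level of the filter (an intensity of 20, or 4.32 on the log2 scale), at 4.781 and 4.817. Psma8 was over that level in 26 mice, and every other gene of the 36 in all 27.

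Diet moved these genes little. Of the 36, 2 differed somewhere among the diets by limma's moderated F test with Benjamini-Hochberg adjustment over all genes (adjusted p under 0.05, the threshold for every call below), the alpha subunit Psma7 and the cutting subunit Psmb6. The same test called 3.62% of all genes. At an unadjusted p under 0.05 it picked 8 of the 36, or 22.2%, against 20.8% of all genes, a share near the background. In some pairs of diets the share stood further from the background, as given below. Between pairs of diets, the called genes were Psmd9 and Psmd10 between MF and CR and Psma7 between CR-MF and MF. All log2 differences of the 36 genes, in all 6 pairs of diets, lay between -0.36 and 0.31, and the greatest fold was 1.29. Since the tissue is bulk liver, fewer cells of a type and less RNA per cell cannot be told apart.

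**Figure D1:**
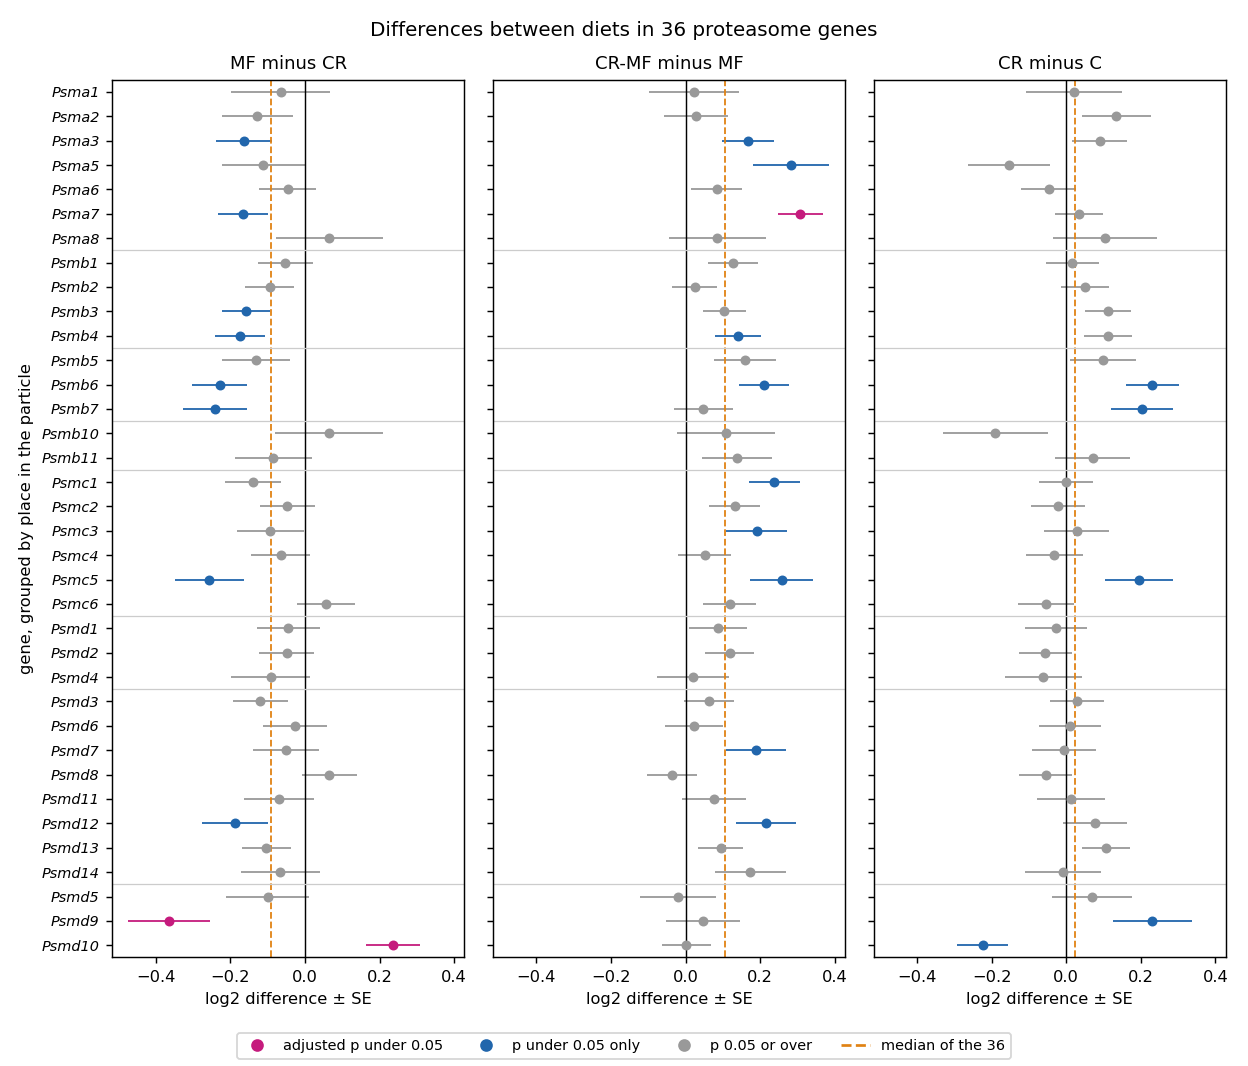
Log2 differences (x axis, with standard errors) of the 36 proteasome genes (y axis, grouped by place in the particle) for 3 of the 6 comparisons. Dashed lines mark the median of the 36, at -0.09 for MF minus CR, 0.11 for CR-MF minus MF and 0.02 for CR minus C. Most points lie left of 0 for MF minus CR and right of 0 for CR-MF minus MF, and pink points, those with an adjusted p under 0.05, number 2 and 1.

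MF against CR asks how a lifelong fatty diet differs from lifelong restriction. The mean differed by a small amount in the lower direction in 31 of the 36 genes, with a median log2 difference of -0.09, where the median of all 13993 genes was -0.01. Calls were 1 gene higher in MF, Psmd10, and 1 lower, Psmd9, where 2.8% of all genes were called higher and 2.62% lower. Unadjusted p under 0.05 was reached by 1 gene (2.78%) on the higher side and 9 (25%) on the lower side, against 12.5% and 11.2% of all genes. The 9 were Psmd9, 2 of the 3 cutting subunits (Psmb6 and Psmb7), the alpha subunits Psma3 and Psma7, Psmb3 and Psmb4 of the beta ring, the ATPase Psmc5 and the lid subunit Psmd12. All 4 beta subunits without a cutting site and all 3 with one were on the lower side. This comparison leaned on a single CR mouse, B4_5, which had the highest level of the 27 mice for 17 of these genes. Without it, 22 of the 36 genes were lower in MF and the median was -0.04. With the arrays centred on their medians, 10 of the 36 were called and the median was -0.22, while the median of all genes moved by -0.125. The share of all genes called on that scale was not counted, so the 10 have no background beside them. Relative to the median of all genes the members stood at -0.085 on either scale.

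CR-MF against MF compares mice eating the same fatty diet, for the last 4 months after restriction in CR-MF and from 9 weeks of age in MF. Earlier restriction and time on the fatty diet thus differ together and cannot be told apart. Of the 36 genes, 34 were on the higher side in CR-MF, with a median log2 difference of 0.11 against 0.00 for all genes. Psma7 was the 1 gene called higher, where 0.55% of all genes were, and none was called lower, where 0.893% of all genes were. Unadjusted p under 0.05 was reached by 10 genes (27.8%) on the higher side, against 6.76% of all genes, and by 0 on the lower side, against 7.99%. The 10 were Psma3, Psma5, Psma7, Psmb4, Psmb6, the ATPases Psmc1, Psmc3 and Psmc5 and the lid subunits Psmd7 and Psmd12. All 7 alpha genes and all 6 ATPase genes were on the higher side, with medians of 0.09 and 0.16. The MF mice here are those of the comparison before, so the opposite leanings of the comparisons share them. Without the CR-MF mouse BC4_11, 3 genes were called, and without CR mouse B4_5 or MF mouse C4_13 or C4_5, 2 were.

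The remaining pairs gave no call among the 36 genes. For CR-MF minus CR, 22 were on the higher side with a median of 0.03 (14 and a median of -0.02 with the arrays centred on their medians, which moved the median of all genes by -0.044 and left the members 0.028 above it, as before), and limma called 0 in either direction, where 0.236% of all genes were called higher and 0.364% lower. At an unadjusted p under 0.05 there were 3 higher (8.33%) and 2 lower (5.56%), against 5.4% and 6.9% of all genes. For CR minus C, 22 were on the higher side with a median of 0.02, and 0.765% and 0.808% of all genes were called higher and lower. At an unadjusted p under 0.05 there were 4 higher (Psmb6, Psmb7, Psmc5 and Psmd9) and 1 lower (Psmd10). These are 11.1% and 2.78%, against 9.27% and 10.5% of all genes. For MF minus C, 29 were on the lower side with a median of -0.06, and limma called 0% of all genes in either direction. At an unadjusted p under 0.05 there were 0 higher and 3 lower (Psma5, Psma7 and Psmc1, or 8.33%), against 2.67% and 1.3% of all genes. A second transcript cluster of Psma5 differed by -0.10 for MF minus C, where the one used differed by -0.27. For Psmc1 the second cluster differed by -0.11 and the one used by -0.14. For CR-MF minus C, 26 were on the higher side with a median of 0.05, and 0.136% and 0.164% of all genes were called higher and lower. At an unadjusted p under 0.05 there were 3 higher (Psma7, Psmb6 and Psmc5, or 8.33%) and 0 lower, against 5.52% and 5.9% of all genes. Without B4_5, 1 gene was called for CR minus C and 1 for CR-MF minus CR, and without the CR-MF mouse BC4_5 1 was called for the latter. The median for CR minus C was -0.02 without B4_5 and 0.08 without B4_7, that for CR-MF minus CR was 0.09 without B4_5 and -0.01 without B4_7, and that for CR-MF minus C was 0.03 without C mouse A4_21.

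The same picture is seen in the mean over the 36 genes, taken in each mouse as the deviation from the mean of all mice. It was -0.064 ± 0.068 in the 7 MF mice (mean ± SD), -0.004 ± 0.068 in the 8 C mice, 0.026 ± 0.130 in the 5 CR mice and 0.050 ± 0.075 in the 7 CR-MF mice. The 5 CR mice stood at -0.10 (B4_7), -0.05 (B4_3), -0.01 (B4_1), 0.06 (B4_13) and 0.23 (B4_5). The lowest, median and highest mice stood at -0.10, 0.01 and 0.07 in C, at -0.07, 0.03 and 0.14 in CR-MF and at -0.14, -0.08 and 0.02 in MF. Thus all groups overlapped, and B4_5 was the highest of the 27 mice. The array names give plates, of which G150 holds most mice and G151 and G152 hold 1 mouse of each diet. CR-MF stood above MF by 0.147 within G150 and 0.151 within G151, and the difference was -0.096 within G152. For MF minus CR it was -0.129, -0.078 and 0.070 in the same order. Within the plates the direction thus held in G150 and G151 and turned in G152, and in both G151 and G152 it rests on 1 mouse per diet. By the same names all CR-MF mice and no others lie in well row H, so that this row and the CR-MF diet cannot be told apart. All 8 C mice lie in row F and all 7 MF mice in row G, while 3 CR mice, those of G150, lie in F and 2 in G. Row and diet thus also cannot be told apart for MF minus C, nor for MF minus CR within G150. Blocking on well row over the C, CR and MF mice was chosen after seeing the data. With it, 27 of the 36 genes were lower in MF than in CR and 21 lower than in C, where the main fit gave 31 and 29. The row effect in that fit comes from the CR mice alone, 3 in F and 2 in G. Those in F are on G150 and those in G on G151 and G152, so row and plate cannot be told apart there. The same limit holds wherever that fit is used below.

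**Figure D2:**
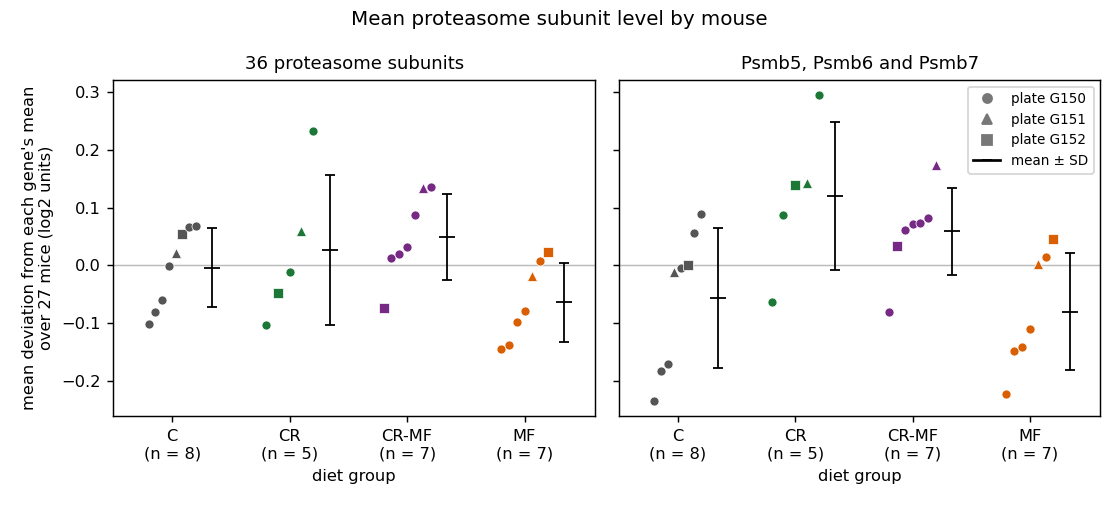
Mean deviation in log2 units (y axis) of the 36 proteasome genes (left) and of the cutting subunits Psmb5, Psmb6 and Psmb7 (right) for each mouse, by diet group (x axis). Shapes are plates, black bars mean ± SD. The groups overlap in both panels, and the CR mouse at 0.23 in the left panel is the highest of all mice.

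Psma7, an alpha subunit, was the gene with the clearest difference. In the 7 MF mice its lowest, median and highest log2 levels were 8.031, 8.230 and 8.368, and in the 7 CR-MF mice 8.401, 8.578 and 8.624. In C they were 8.209, 8.334 and 8.476. The 5 CR mice stood at 8.197, 8.403, 8.416, 8.416 and 8.475. Each CR-MF mouse thus lay above each MF mouse, as was so for 0.386% of all genes, while C and CR lay between and overlapped with both. CR-MF exceeded MF by 0.31 ± 0.06 (log2, SE) or 1.24-fold, with an adjusted p of 0.00973, and the F test gave an adjusted p of 0.023. This difference passed the threshold in each of the 27 fits that left out 1 mouse, where the adjusted p was at most 0.0261, and in the 14 other settings tried. Its difference was 0.36 within plate G150, 0.32 within G151 and 0.03 within G152. CR-MF was also 0.14 above CR (adjusted p 0.382) and 0.17 above C (adjusted p 0.251), neither of which passed.

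Psmb6, the subunit with caspase-like cutting activity, was the other gene called by the F test, with an adjusted p of 0.0447. The 5 CR mice stood at 9.546, 9.559, 9.560, 9.728 and 9.809. In the C mice the lowest, median and highest were 9.287, 9.423 and 9.535. Every CR mouse thus lay above every C mouse, the gap being small, as was so for 0.65% of all genes. In CR-MF they were 9.511, 9.627 and 9.752, and in MF 9.163, 9.434 and 9.666. The CR-MF mice overlapped with CR, and the MF mice overlapped with all groups. The log2 difference was 0.23 ± 0.07 for CR minus C (adjusted p 0.0782), -0.23 ± 0.07 for MF minus CR (adjusted p 0.0623), 0.21 ± 0.07 for CR-MF minus MF (adjusted p 0.111) and 0.21 ± 0.06 for CR-MF minus C (adjusted p 0.183). Within G150, G151 and G152, CR minus C was 0.169, 0.382 and 0.193, MF minus CR was -0.211, -0.312 and -0.062, and CR-MF minus MF was 0.244, 0.254 and -0.004. None of these pairs passed over all plates, and the F call was lost in 19 of the 27 fits without 1 mouse, with the highest adjusted p, 0.0937, without CR mouse B4_3.

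The other cutting subunits passed no test. Psmb7, with trypsin-like activity, stood at 9.244, 9.376, 9.503, 9.639 and 9.764 in the CR mice. Its lowest, median and highest were 8.997, 9.342 and 9.471 in C, 9.224, 9.297 and 9.403 in CR-MF and 9.048, 9.317 and 9.446 in MF. MF minus CR was -0.24 ± 0.09 (adjusted p 0.0916). Of the CR mice, 3 lay above every mouse of the other groups and 2 within them. Psmb5, with chymotrypsin-like activity, stood at 10.828, 10.893, 11.005, 11.063 and 11.378 in the CR mice. Its lowest, median and highest were 10.743, 10.935 and 11.259 in C, 10.824, 11.110 and 11.200 in CR-MF and 10.705, 10.902 and 11.009 in MF. All groups overlapped, and the F test gave an unadjusted p of 0.198. As a mean over the 3 cutting subunits, CR stood 0.177 above C over all plates and 0.180, 0.155 and 0.138 within G150, G151 and G152. MF minus CR was -0.200, and -0.228, -0.140 and -0.094 within the plates.

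Of the chaperones, Psmd9 and Psmd10 moved in opposite directions between CR and MF. Psmd9, also called p27, helps to place ATPases in the base. It stood at 7.875, 8.091, 8.103, 8.135 and 8.473 in the 5 CR mice. Its lowest, median and highest were 7.609, 7.722 and 7.947 in MF, 7.559, 7.790 and 8.049 in CR-MF and 7.438, 7.940 and 8.242 in C. Apart from B4_5, each CR mouse lay above all MF mice, while the groups as wholes overlapped. MF minus CR was -0.36 ± 0.11, or 1.29-fold lower in MF, with an adjusted p of 0.0464, and was -0.26, -0.43 and -0.58 within the 3 plates. CR-MF minus CR was -0.32 ± 0.11 (adjusted p 0.189).

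Psmd10, or gankyrin, is a chaperone of the ATPase ring that also binds the retinoblastoma protein and is known from liver tumours. It stood at 7.561, 7.582, 7.611, 7.755 and 7.903 in the CR mice. Its lowest, median and highest were 7.783, 7.917 and 8.024 in MF, 7.673, 7.933 and 8.093 in CR-MF and 7.762, 7.915 and 8.019 in C. Hence 4 CR mice lay below every MF mouse, and B4_5 lay among the mice of the other diets. MF minus CR was 0.24 ± 0.07, or 1.18-fold higher in MF, with an adjusted p of 0.0496, and was 0.18, 0.24 and 0.46 within the plates. The nearly equal difference between CR-MF and CR, 0.24 ± 0.07, did not pass (adjusted p 0.129), nor did that between CR and C (-0.22, adjusted p 0.0785). Both calls sat at the threshold. The call of Psmd9 was lost in 18 and that of Psmd10 in 20 of the 27 fits without 1 mouse, with the highest adjusted p (0.154 and 0.137) without CR mouse B4_3. The third such chaperone, Psmd5, differed by -0.10 between MF and CR (F test p 0.728).

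**Figure D3:**
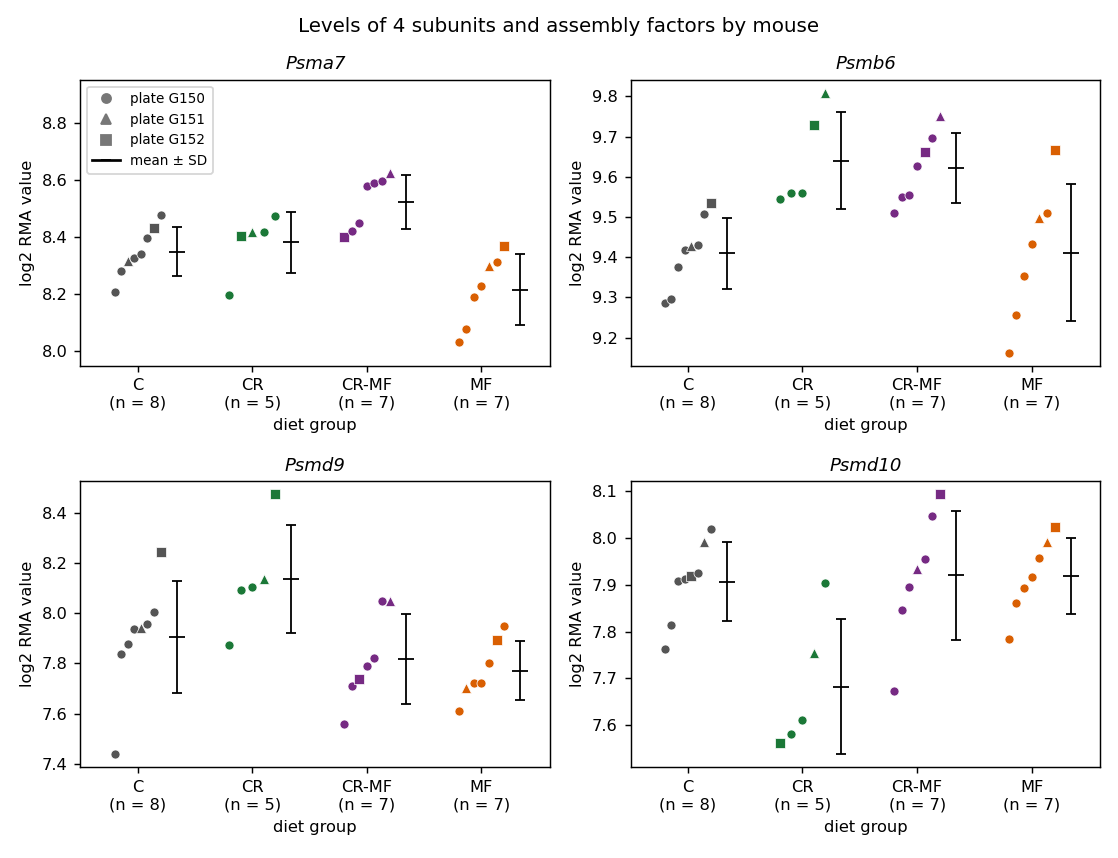
Log2 level (y axis) of Psma7, Psmb6, Psmd9 and Psmd10 in each mouse, by diet group (x axis). Shapes are plates, black bars mean ± SD. For Psma7 every CR-MF mouse lies above every MF mouse (8.401 against 8.368), for Psmb6 every CR mouse lies above every C mouse (9.546 against 9.535), and for Psmd9 and Psmd10 the CR mice overlap with MF by 1 mouse.

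Of the ATPases of the base, Psmc5 and Psmc1 had the smallest F p (0.00973 and 0.0158), with no call. Psmc5 stood at 7.174, 7.297, 7.299, 7.374 and 7.728 in the CR mice. Its lowest, median and highest were 7.111, 7.349 and 7.598 in CR-MF, 6.943, 7.150 and 7.265 in MF and 7.046, 7.158 and 7.370 in C. It was 0.26 ± 0.08 higher in CR-MF than in MF (adjusted p 0.126) and by the same amount lower in MF than in CR (-0.26 ± 0.09, adjusted p 0.0959). Psmc1 stood at 8.583, 8.749, 8.800, 8.816 and 9.059 in the CR mice, and its lowest, median and highest were 8.746, 8.905 and 9.114 in CR-MF, 8.540, 8.652 and 8.837 in MF and 8.658, 8.794 and 8.927 in C. CR-MF exceeded MF by 0.24 ± 0.07 (adjusted p 0.074). For both genes the CR-MF and MF mice overlapped. A second transcript cluster of Psmc1 differed by 0.17 in the same direction. Of the 6 genes with several clusters, the clusters not used had the sign of the used one in both MF minus CR and CR-MF minus MF in each case, though those of Psmb1 correlated weakly with each other (r = 0.109 over 27 mice).

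Although diet changed these genes little, they varied together among mice of the same diet. After subtraction of the group means, the correlation between members averaged 0.319 over 630 pairs and 27 mice, where that between all genes past the filter averaged 0.0097. Of the pairs, 566 had a positive r, and 171 had an r over 0.5. The mean was 0.573 among the ATPases of the base, 0.522 among beta subunits without a cutting site, 0.42 in the lid and 0.388 in the alpha ring. The highest single value, 0.874, joined the lid subunits Psmd11 and Psmd12. The ATPase Psmc3 followed the mean of the other members most closely (r = 0.807), then Psmd12 (0.788), Psma2 and Psmb5 (0.765 each). Some other lists varied together as much. The mean was 0.681 among immune cell markers, 0.566 among Psmb8, Psmb9, Psme1 and Psme2, and 0.451 among interferon-induced genes. It was 0.271 among deubiquitinases, ligases and shuttles, 0.257 among hepatocyte markers and 0.218 among assembly chaperones of the core. It was 0.0798 in degradation from the endoplasmic reticulum and 0.0329 among transcription factors. Of the 50 genes closest to the member mean, 7 were members. The members share the library of each mouse, and these values are a description.

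Some members did not go with the rest. The lid subunits Psmd8 and Psmd7 had an r of 0.144 and 0.21 with the mean of the others, the chaperone Psmd9 0.122, and Psma8 and Psmb11, near the detection level, 0.145 and 0.0686. Psmb10, the inducible cutting subunit, had an r of 0.0288 with the mean of the other members and of 0.613 with its closest member, Psmb3. Its r was 0.81 with Psmb9 and 0.632 with Psmb8, its partners in the immunoproteasome. Psmd10, with an r of 0.363 to the mean of the other members, had one of 0.567 with Psmb9 and 0.56 with Psmb8. With the mean of 7 measured interferon-induced genes Psmb10 had an r of 0.782 and with that of 12 measured immune cell markers 0.481. For the mean of all members these values were 0.35 and -0.227. Psmb10 stood at 8.810, 8.838, 9.160, 9.343 and 9.422 in CR, with a lowest, median and highest of 9.048, 9.256 and 9.693 in C, 8.917, 9.300 and 9.701 in CR-MF and 8.739, 9.138 and 9.559 in MF. All groups overlapped (F test p 0.491).

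**Figure D4:**
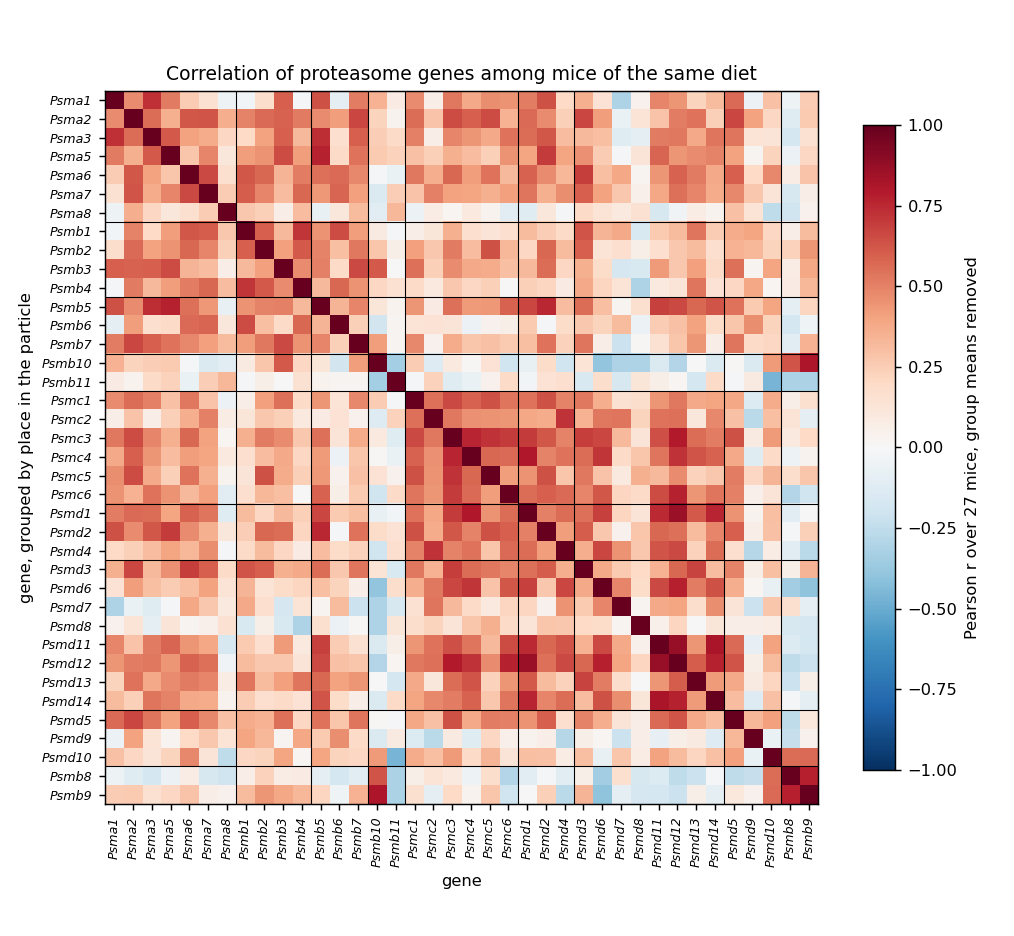
Pearson correlation (colour) between each pair of the 36 proteasome genes and Psmb8 and Psmb9, over 27 mice after the group means were subtracted, with lines between places in the particle. Red fills most of the square (566 of 630 pairs are positive), the row of Psmb10 is mostly pale or blue, with its deepest red at Psmb9 (0.81), Psmb8 (0.632) and Psmb3 (0.613), and the rows of Psmd8, Psma8 and Psmb11 hold no r over 0.364.

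Genes outside the set that varied most like its mean, among all 13993 and over the same 27 mice, were Vcp (r = 0.874), Aox1 (0.858), Gstm4 (0.824), Txnl1 (0.804), Fabp2 (0.799), Ugdh (0.793), Nelfe (0.785) and Lars2 (0.779). Vcp codes for the ATPase p97, which pulls ubiquitinated proteins out of complexes and membranes. Txnl1 codes for a thioredoxin that binds the cap, Aox1 for aldehyde oxidase, Gstm4 for a glutathione transferase and Ugdh for the enzyme that makes UDP-glucuronic acid.

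Some other genes of the system passed the test. Psmg1, part of a chaperone pair that starts the assembly of the alpha ring, had a lowest, median and highest level of 7.765, 7.786 and 8.084 in CR, 7.205, 7.463 and 7.802 in C, 7.611, 7.804 and 7.870 in CR-MF and 7.155, 7.508 and 7.782 in MF. CR exceeded C by 0.38 ± 0.10 (adjusted p 0.0453), and MF minus CR was -0.37 ± 0.10 (adjusted p 0.0295). The highest C mouse (7.802) and the highest MF mouse (7.782) lay above the lowest CR mouse. Psme4, or PA200, an alternative cap, was 0.21 ± 0.05 higher in CR than in C (adjusted p 0.0416) while MF minus CR was -0.22 ± 0.06 (adjusted p 0.0225), where each CR mouse (lowest 9.858) lay above each MF mouse (highest 9.775), as was so for 1.5% of all genes. For both genes the mean of CR-MF lay between those of CR and MF, 0.09 and 0.10 below CR, and differed from neither by test. For Psmg1 the median of CR-MF (7.804) lay above that of CR (7.786), whose mean includes the high mouse B4_1 at 8.084. The calls of Psmg1 and Psme4 for CR minus C were lost in 15 and 10 of the 27 fits without 1 mouse, with the highest adjusted p without CR mouse B4_1 (0.143) and B4_3 (0.12). For MF minus CR they were lost in 6 and 2, with the highest without B4_1 (0.0977) and B4_13 (0.07). With the animal number as a block none of the 4 calls passed (adjusted p 0.0684 to 0.128), and with plate G150 alone neither call of Psme4 did (0.23 and 0.328). For Psmg1, blocking on well row over the C, CR and MF mice, a fit chosen after seeing the data, gave 0.301 for MF minus CR and 0.129 for CR minus C. Of the 15 other settings tried, the calls for CR minus C held in 11 (Psmg1) and 8 (Psme4), and those for MF minus CR in 12 and 13. Of the other assembly chaperones of the core (Psmg2, Psmg3, Psmg4 and Pomp) none was called. Pomp had the next smallest F p (0.0176). Of the other caps and inhibitors only Psmf1 was tested beside Psme4, and it had an F p of 0.175.

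The inducible subunits and their cap were not called in any comparison. Psmb8 had means of 8.158 ± 0.32 in C, 7.958 ± 0.23 in CR, 8.442 ± 0.50 in CR-MF and 7.998 ± 0.35 in MF (SD). Psmb9 stood at 8.587 ± 0.27, 8.077 ± 0.36, 8.802 ± 0.48 and 8.589 ± 0.45. Psmb9 was 0.73 ± 0.22 higher in CR-MF than in CR (unadjusted p 0.00271, adjusted p 0.133), while the interferon-induced Ifit1 was called higher there, by 1.55 (adjusted p 0.0305), and Tap1, part of the transporter that carries peptides into the endoplasmic reticulum, was not called (F p 0.0098). All 7 interferon-induced genes measured were higher in CR-MF than in CR and than in MF by value, with medians of 0.65 and 0.54, and 5 and 4 had an unadjusted p under 0.05. The cap subunits Psme1 and Psme2 differed by -0.29 (adjusted p 0.0705) and -0.05 between MF and CR. Of the 12 immune cell markers measured, all 12 were lower in CR than in C by value, with a median of -0.86, none called by limma and 7 at an unadjusted p under 0.05. All 12 were higher in MF than in CR by value, with a median of 0.66, none called and 5 at an unadjusted p under 0.05. The antigen presentation genes H2-Ab1 and Cd74 had the smallest F p (0.00952 and 0.00984). The mean over the 12 markers, as a deviation from the mean of all mice, ran from -0.78 to 1.04 in C, -0.68 to -0.46 in CR, -0.94 to 1.197 in CR-MF and -0.58 to 1.73 in MF. The part of immune cells and of interferon in the levels of Psmb8, Psmb9, Psmb10 and the other proteasome genes was not tested.

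Among factors that transcribe proteasome genes, Nfe2l1 and Nfe2l2 were not called. Nfe2l1 stood at 9.733 ± 0.21 in C, 9.741 ± 0.26 in CR, 9.482 ± 0.16 in CR-MF and 9.677 ± 0.27 in MF (SD), and had an r of 0.333 with the mean of the members among mice of the same diet. Nfe2l2, the factor of the antioxidant response, stood at 9.870 ± 0.10, 9.773 ± 0.10, 9.548 ± 0.47 and 9.939 ± 0.09 and had an r of -0.0548. Each CR-MF mouse lay below each MF mouse for Nfe2l2, with a mean difference of -0.39 (adjusted p 0.132), as was so for 0.264% of all genes, and with BC4_15 far below the other CR-MF mice at 8.496. Bach1, which represses antioxidant response elements, differed by -0.28 ± 0.08 for MF minus CR (adjusted p 0.0382) and was 0.31 ± 0.07 higher in CR-MF than in MF (adjusted p 0.0271). Of the subunits of NF-Y, the factor of the CCAAT box, Nfya was higher in MF than in CR by 0.38 ± 0.10 (adjusted p 0.0274) and Nfyb lower, at -0.35 ± 0.11 (adjusted p 0.049). Binding of NF-Y to the matches shown above was not measured. Of the 11 genes tested in this list, 1 was thus called higher and 2 lower between MF and CR, and 1 higher between CR-MF and MF, where the shares over all genes were 2.8%, 2.62% and 0.55%. The calls for MF minus CR were lost in 9 (Bach1), 5 (Nfya) and 18 (Nfyb) of the 27 fits without 1 mouse, with the highest adjusted p without B4_5 (0.0838), B4_1 (0.0846) and B4_1 (0.108), and that of Bach1 for CR-MF minus MF in 3, with the highest without BC4_9 (0.0664). Of the 15 other settings tried, they held in 10, 11 and 8 for MF minus CR, and that of Bach1 for CR-MF minus MF held in 11 of 14.

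Of the genes that act on the substrate before it reaches the particle, few were called. Among 9 tested deubiquitinases, ligases and shuttles, the arsenite-induced Zfand2a was called higher in MF than in CR (0.47 ± 0.13, adjusted p 0.0302), a call lost in 5 of the 27 fits without 1 mouse (at most 0.093, without B4_1). That call held in 10 of the 15 other settings tried. The deubiquitinase Uchl5 had the next smallest F p (0.0269), with no call. Of the ubiquitin and E1 genes only Uba6 was tested, and it was not called (F p 0.0206). The cap subunit Sem1 was not called either (F p 0.686). In degradation from the endoplasmic reticulum, Derl3, a channel component induced when unfolded proteins gather there, had the largest difference of the 8 genes tested. It was 1.78 ± 0.29 higher in CR than in C, or 3.44-fold (adjusted p 0.00288), while MF minus CR was -1.60 ± 0.30 (adjusted p 0.00383). Both calls held in each of the 27 fits without 1 mouse, but that for CR minus C was lost with the animal number as a block (adjusted p 0.065), and that for MF minus CR with plate G150 alone (0.064) and in a fit over the C, CR and MF mice, chosen after seeing the data, that blocked on well row (0.0549). CR-MF lay between, at a mean of 6.840 against 7.924 in CR and 6.321 in MF. All 8 tested genes of this list were on the higher side in CR against C, 1 of them called, and Derl2 had the next smallest F p (0.0257). Of 9 hepatocyte markers measured, 4 passed the filter and were tested. Of these the amino acid enzymes Tat (-0.46, adjusted p 0.015) and Cps1 (-0.29, adjusted p 0.0287) were called lower in MF than in CR, while Alb, which did not pass the filter, stood at 13.619 in MF and 13.599 in CR. Their part in the differences of the proteasome genes was not tested.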

How the data were processed

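The authors deposited log2 expression values, normalised by RMA across 27 arrays (1 per mouse); the submitters' processing notes name RMA without a version. Transcript clusters with 1 gene symbol were kept, with the cluster of the highest mean for each gene (21218 of 35556 clusters, 18820 genes). Genes over an intensity of 20 on at least 5 arrays with an interquartile range over 0.1 were tested (13993) with limma 3.58.1 in R 4.3.3 (lmFit on 4 group means, eBayes with an intensity trend), which replaces the intensity-based moderated statistic of the study (run as an alternative), with Benjamini-Hochberg adjustment over all genes tested. The code was tested on simulated data. Arrays give no counts, so the number of mice limits the precision. Symbols came from the platform annotation, loci and promoters from RefSeq.

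The proteasome genes and the other lists were chosen with earlier results of these data known. Mouse by mouse values are given for genes with an adjusted p under 0.05 in a pair of diets or in the F test, filled up to 6 with the smallest F p, and for Psmb5, Psmb6, Psmb7 and Psmb10. Of each other list the 2 genes with the smallest F p are named, with Nfe2l1, Nfe2l2, Psmb8, Psmb9, Psme1 and Psme2, and the 8 genes closest to the mean of the members. Nfyb was named after its values were seen. Plates and well rows were read from the array names. The alternatives were other normalisation, filters, cluster summaries, variance models and weights, a fit to the compared groups alone, blocks, plate G150 alone and leaving out each mouse.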

Additional observations from a re-analysis of the deposited data

Results flagged for a closer look

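Each group of mice was searched for a mouse far from the others, by Dixon's ratio of the gap to the range, over the mean of the 36 proteasome genes and 17 named genes. Of 72 groups, 4 held such a mouse, and chance gives about 1 in 20. Psma7 in CR had a low mouse, B4_7, at 8.197 against 8.403 for the next (ratio 0.741). Psmg1 in CR had a high mouse, B4_1, at 8.084 against 7.842 (ratio 0.758). Psme4 in C had a high mouse, A4_13, at 9.923 against 9.735 (ratio 0.649). Nfe2l2 in CR-MF had a low mouse, BC4_15, at 8.496 against 9.558 (ratio 0.807).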

How the results depend on the processing

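Of the counts of proteasome genes called, that for MF minus CR (2) became 0 without the filter, with only the compared groups, with plate G150 alone, with the animal number as a replicate block and, in a fit chosen after seeing the data, with the well row as a block over the C, CR and MF mice, and 1 without the intensity trend. The count for the F test (2) became 0 with the replicate block and with plate G150 alone, 1 without the filter and without the trend, and 4 with array weights. Array weights also gave 2 for CR-MF minus MF and 2 for CR minus C. Centring the arrays on their medians gave 10 for MF minus CR, 3 for CR-MF minus MF, 1 for CR minus C and 4 for the F test, with medians of the members of -0.22 for MF minus CR and 0.12 for CR minus C, and 14 members higher for CR-MF minus CR. That centring also moved the median of all genes, by -0.125 for MF minus CR and 0.097 for CR minus C, and relative to it the members stood at -0.085 and 0.008 on either scale. The share of all genes called was counted only for the main fit, so counts under the other settings have no background beside them. Leaving out B4_5 and BC4_11 together, chosen after seeing the data, gave 3 for CR-MF minus MF, 1 for CR minus C, 5 for the F test and a median of 0.11 for CR-MF minus CR. With 1 mouse left out at a time the counts ran from 0 to 3 for MF minus CR, from 1 to 3 for CR-MF minus MF and for the F test, and from 0 to 1 for CR minus C and CR-MF minus CR. No proteasome gene was called under any of these settings for MF minus C or CR-MF minus C. The animal numbers were not taken as pairing the mice, since the labels do not tie them to a litter or day. Pairs with the same number did lean together: 13 of 27 had an r over 0.1 (mean 0.089), against 66 of 244 pairs with other numbers (mean -0.00883). What the numbers mark was not tested. With the block the difference of Psma7 between CR-MF and MF had an adjusted p of 0.0335. The smallness of the groups, above all the 5 CR mice, limits what could be seen.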
